A study of Homo sapiens with 6 samples.

Results

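Protein depalmitoylases are the enzymes that take palmitate, a saturated fatty acid, off cysteines of other proteins. The 8 genes grouped under this name here are LYPLA1, LYPLA2, LYPLAL1, ABHD17A, ABHD17B, ABHD17C, PPT1 and PPT2. They were found by symbol among 58780 annotated human genes, and enzyme activity was not measured for any of them. All 8 had enough counts to be among the 19725 genes tested. The set was chosen with the results of the contrast below known, LYPLA2 and its contrast with LYPLA1 in particular. The values of LYPLA2 and LYPLA1 are therefore given as a description with no test.

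RNA was measured in HCT116, an established human colorectal carcinoma cell line. The auxin group was 3 biological replicates of cells given auxin for 16 h, and the control group was 3 replicates given DMSO, the solvent. In degron systems auxin, a plant hormone, makes cells degrade a tagged protein. The labels name neither that protein, nor the allele that carries the tag, nor the source of the plant receptor that the system needs, and do not say whether the cells are 1 clone, so the loss of the target could not be checked and no untagged cells given auxin were compared. Bulk RNA gives the level of a transcript relative to all other RNA, and fewer cells with a transcript and less of it per cell cannot be told apart.

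S-palmitoylation attaches palmitate to cysteines through a thioester bond. It is written by the ZDHHC palmitoyltransferases and, unlike most lipid modifications, can be removed again, so that proteins such as HRAS and NRAS cycle between the plasma membrane and the Golgi. In the cytosol the acyl-protein thioesterases LYPLA1 (also called APT1) and LYPLA2 (APT2) and the membrane-bound ABHD17 hydrolases remove it. PPT1 and PPT2 are lysosomal thioesterases that act during protein and lipid breakdown.

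Total expected counts, which are estimated numbers of reads, ranged from 234037969 to 625895062 per library, and replicate 1 was the deepest in both groups. Of all genes tested, 52.3% were called by the quasi-likelihood test of edgeR (adjusted p below 0.05), 25.4% higher and 26.9% lower after auxin, with a median log2 fold change of 0.02. Of the calls, 48.5% were higher. This share was 59.7% with upper-quartile factors, which moved the median gene by 0.12 on the log2 scale. It was 24.0% and 24.6% in limma on log2(TPM + 0.1) and log2(TPM + 1), which moved the median gene by -0.15 and -0.14. As a check of the cells, 9 of 10 colorectal epithelial markers were at or above 1 TPM in every library, and VIL1 was near 0. The list's summed TPM was 1870 to 2558 in DMSO and 2269 to 2726 in auxin. The 5 fibroblast markers summed to 1.31 to 2.78 TPM in DMSO and 0.62 to 1.51 in auxin, with LUM at 0, and the 7 blood and endothelial markers to at most 0.21 TPM in any library, with PTPRC and CD3E at 0.

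After auxin, LYPLA2, ABHD17A and PPT2 were lower by more than 4-fold, LYPLAL1 was moderately higher, and the most abundant member, LYPLA1, was slightly higher. ABHD17B, ABHD17C and PPT1 had fold changes between 0.89 and 1.24. The LYPLA1 and LYPLA2 pair, the 3 ABHD17 genes and the PPT pair thus each held 1 member that was much lower beside close relatives that were not. Of the 8 members, 7 were called, 3 higher and 4 lower, against 52.3% of all genes, and 3 were called and at least 4-fold lower, against 4.90% of all genes. These counts use the contrast the set was chosen on and are only described. The normalised counts of the groups did not overlap for any of the 8, 3 being higher and 5 lower, as for 60.3% of all genes, 30.0% higher and 30.4% lower. In TPM, the deposited abundance per transcript length, 5 members had groups that did not overlap.

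**Figure D1:**
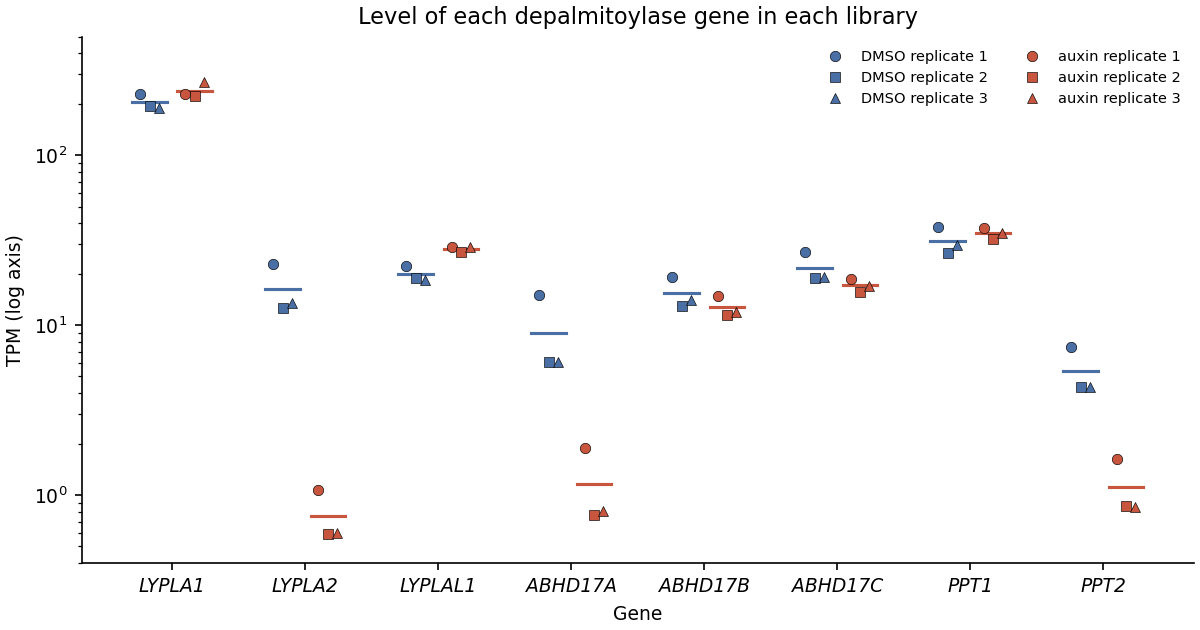
TPM (log axis) of the 8 genes in each library, with a point per library (circle, square and triangle for replicates 1, 2 and 3) and a line at the group mean, in blue for DMSO and red for auxin. LYPLA1 lay between 189 and 270 TPM in all libraries, while LYPLA2 went from 12.6 to 22.9 TPM in DMSO to 0.59 to 1.08 in auxin.

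LYPLA2 (ENSG00000011009.10, chr1:23790970-23795539 on the + strand of GRCh38) encodes the thioesterase APT2. Its TPM was 22.9, 12.6 and 13.5 in DMSO replicates 1, 2 and 3 and 1.08, 0.59 and 0.60 in auxin replicates 1, 2 and 3. The highest auxin library was thus more than 10-fold below the lowest DMSO library. In CPM, the count relative to the TMM-scaled library size, the values were 24.7, 20.3 and 21.3 in DMSO and 1.15, 0.749 and 0.749 in auxin. The fitted log2 fold change was -4.63 (SE 0.21), a 24.7-fold lower level. The auxin values rest on at least 166 counts in a library. Only 0.0304% of the genes tested had a lower fold change.

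LYPLA1 (ENSG00000120992.17, chr8:54046367-54102017 on the - strand) encodes APT1, the closest relative of APT2. Its TPM was 230.0, 197 and 189 in DMSO and 230.0, 223 and 270 in auxin. The 2 groups overlapped on this scale, since replicate 1 had the same value in both. In CPM the values were 251, 294 and 283 in DMSO and 317, 365 and 356 in auxin, and the groups did not overlap. The fitted log2 fold change was 0.33 (SE 0.09), and the 3 differences between same-numbered libraries were 0.34, 0.31 and 0.33.

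Because TPM is scaled by length, levels of the 2 genes can be set side by side, but they include non-coding transcripts. Coding transcripts held 49.7% to 56.6% of the TPM of LYPLA1 and 99.0% to 99.5% of that of LYPLA2 in DMSO. In auxin they held 44.3% to 58.8% and 82.0% to 100%. The percentages of LYPLA1 given next are thus lower than they would be for coding transcripts alone. LYPLA2 stood at 9.95%, 6.43% and 7.15% of the TPM of LYPLA1 in DMSO and at 0.470%, 0.265% and 0.222% in auxin. The log2 ratio of LYPLA2 to LYPLA1 went from -3.70 ± 0.33 (SD, n = 3) to -8.37 ± 0.57 (SD, n = 3), a difference of -4.67. It was -4.40 between the libraries of replicate 1 and -4.81 over replicates 2 and 3. In CPM the difference was -5.0, and without auxin replicate 1 it was -4.99. The summed TPM of the pair was 222 ± 27.2 in DMSO and 242 ± 25.6 in auxin (SD, n = 3), and the 2 groups overlapped. LYPLA2 made up 7.25% ± 1.58 of that sum in DMSO and 0.318% ± 0.131 in auxin (SD, n = 3).

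Processed copies of both genes in the genome could share their reads. LYPLA2P1, LYPLA2P2 and LYPLA2P3 were at or below 0.04 TPM in every library, LYPLA1P1 and LYPLA1P2 were at 0, and LYPLA1P3 reached 0.19 TPM. Copies of this size are far below the levels of the parent genes, although the counting could still have split reads between them. With the copies added to both genes, the difference in the log2 ratio was -4.674, against -4.671 without them.

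The transcripts of LYPLA2 were led by LYPLA2-205, a coding transcript of 10 exons. It carried 75.7%, 77.0% and 79.7% of the gene's TPM in DMSO and 45.4%, 45.8% and 44.3% in auxin. Its CPM went from 19.9 ± 1.82 to 0.612 ± 0.117 (SD, n = 3). The shorter coding transcript LYPLA2-202 was at 1.08 ± 0.21 CPM in DMSO and 0.120 ± 0.070 in auxin, and LYPLA2-206 at 0.441 ± 0.066 and 0.0576 ± 0.0231 (SD, n = 3). LYPLA2-207 was lower as well, at 0.168 ± 0.047 and 0.0142 ± 0.0064 CPM. In auxin these 3 transcripts rest on few estimated reads. Replicates 1, 2 and 3 had 131, 24.2 and 13.4 for LYPLA2-202, 42.3, 17.9 and 6.57 for LYPLA2-206, and 7.94, 5.15 and 1.94 for LYPLA2-207. LYPLA2-204 was at 0.0311 ± 0.0281 CPM in DMSO and 0.0304 ± 0.0263 in auxin, levels at which the share of 9.84% in auxin replicate 3 rests on few reads.

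LYPLA1 showed no such shift. The full coding transcript LYPLA1-201, with 9 exons, held 44.2%, 38.6% and 41.3% of the gene's TPM in DMSO and 46.7%, 41.4% and 31.8% in auxin. LYPLA1-208, a non-coding processed transcript of 577 bases, held 38.3% to 53.3% of the TPM, and because it is short only 35.0 ± 7.03 CPM in DMSO and 48.6 ± 16.6 in auxin (SD, n = 3). LYPLA1-201 stood at 204 ± 13.2 and 258 ± 22.3 CPM (SD, n = 3). The coding share overlapped between groups, at 49.7% to 56.6% in DMSO and 44.3% to 58.8% in auxin. LYPLA1-202, the other coding transcript above 5%, was at 16.4 ± 3.62 and 25.2 ± 8.74 CPM.

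LYPLAL1 (ENSG00000143353.11, chr1:219173844-219212865, + strand) encodes a serine hydrolase of the same family, and it rose. Its TPM was 22.4, 18.9 and 18.5 in DMSO and 28.95, 27.0 and 29.02 in auxin, with no overlap. The log2 fold change was 0.71 (SE 0.09, adjusted p = 0.000654, edgeR). The coding transcript LYPLAL1-202 rose as well, from 10.6 ± 1.34 to 18.8 ± 2.2 CPM (log2 fold change 0.83, adjusted p = 0.0114, edgeR). That call was lost without auxin replicate 2 (adjusted p = 0.0558, edgeR) and without auxin replicate 3 (adjusted p = 0.0528, edgeR). The non-coding LYPLAL1-209 was at 3.21 ± 0.51 CPM in DMSO and 5.02 ± 0.89 in auxin (SD, n = 3) and was not called (adjusted p = 0.0746, edgeR). It was called with the replicate block (adjusted p = 0.0194, edgeR) and with upper-quartile factors (adjusted p = 0.0308, edgeR). The same held with counts divided by an overdispersion taken from the uncertainty of assigning reads (adjusted p = 0.0384, edgeR).

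The ABHD17 hydrolases act on palmitoylated proteins at membranes, among them NRAS and PSD-95, the product of DLG4. ABHD17A (ENSG00000129968.15, chr19:1876810-1885547, - strand) fell. Its TPM was 15.0, 6.08 and 6.09 in DMSO and 1.90, 0.76 and 0.81 in auxin. Replicate 1 was more than 2-fold above the other replicates in both groups, and the groups did not overlap. In CPM the values were 20.9, 12.5 and 11.9 in DMSO and 4.83, 2.41 and 2.58 in auxin. The log2 fold change was -2.20 (SE 0.34, adjusted p = 0.00134, edgeR), and within replicates 1, 2 and 3 it was -2.12, -2.37 and -2.21. With offsets corrected for GC content, an alternative chosen after seeing the data, it was -1.07 and was still called (adjusted p = 0.000519, edgeR).

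ABHD17B and ABHD17C kept close to their control levels. ABHD17B (ENSG00000107362.13, chr9:71862452-71910931, - strand) was at 33.7, 32.9 and 34.9 CPM in DMSO and 31.6, 31.4 and 30.7 in auxin. It was not called (log2 fold change -0.12, 95% interval -0.24 to 0.01, adjusted p = 0.113, edgeR). With the replicate block it was called (adjusted p = 0.0216, edgeR), and with upper-quartile factors the sign turned, at 0.01. ABHD17C (ENSG00000136379.11, chr15:80679684-80755621, + strand) was at 46.6, 48.0 and 47.0 CPM in DMSO and 39.8, 42.7 and 43.5 in auxin. Its log2 fold change of -0.17 (SE 0.06) passed narrowly (adjusted p = 0.0388, edgeR). This call was lost when any of the 6 libraries was left out (adjusted p from 0.0654 to 0.112, edgeR) and in DESeq2 (adjusted p = 0.0559).

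The difference between ABHD17A and its relatives was tested on the log2 TPM ratio within each library, as were ABHD17C against ABHD17B and PPT2 against PPT1, 4 ratios in all. The ratio of ABHD17B to ABHD17A went from 0.89 ± 0.45 to 3.59 ± 0.54 (SD, n = 3), a change of 2.70. That of ABHD17C to ABHD17A went from 1.38 ± 0.46 to 4.02 ± 0.62 (SD, n = 3), a change of 2.64. Both were higher in 3 of 3 pairs of same-numbered libraries, with a two-sided exact permutation p of 0.1 (0.133 adjusted over the 4 ratios), the smallest that 3 against 3 libraries allow. The ratio of ABHD17C to ABHD17B was 0.49 ± 0.05 in DMSO and 0.43 ± 0.08 in auxin (SD, n = 3; exact permutation p = 0.5). Its change was -0.14 between the libraries of replicate 1 and -0.02 over replicates 2 and 3. As a share of the summed TPM of the 3 genes, ABHD17A went from 18.6% ± 5.03 to 3.59% ± 1.51 (SD, n = 3).

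Among the transcripts of ABHD17A, the coding ABHD17A-202 fell from 12.5 ± 3.95 to 1.35 ± 0.51 CPM (SD, n = 3; log2 fold change -3.21, SE 0.36, adjusted p = 0.00264, edgeR). The transcripts annotated as retaining an intron, ABHD17A-203 and ABHD17A-205, were not called (adjusted p = 0.386 and 0.754, edgeR). Together they were at 3.36, 2.11 and 1.87 CPM in DMSO and 2.74, 1.38 and 1.61 in auxin, with overlapping groups. Their share of the gene's TPM was 5.67%, 5.92% and 5.40% in DMSO and 30.5%, 27.6% and 33.3% in auxin, with no overlap. In the auxin libraries these transcripts thus had more counts than the coding ones, which were at 1.95, 1.10 and 1.02 CPM. The gene level sums the counts of both kinds.

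**Figure D2:**
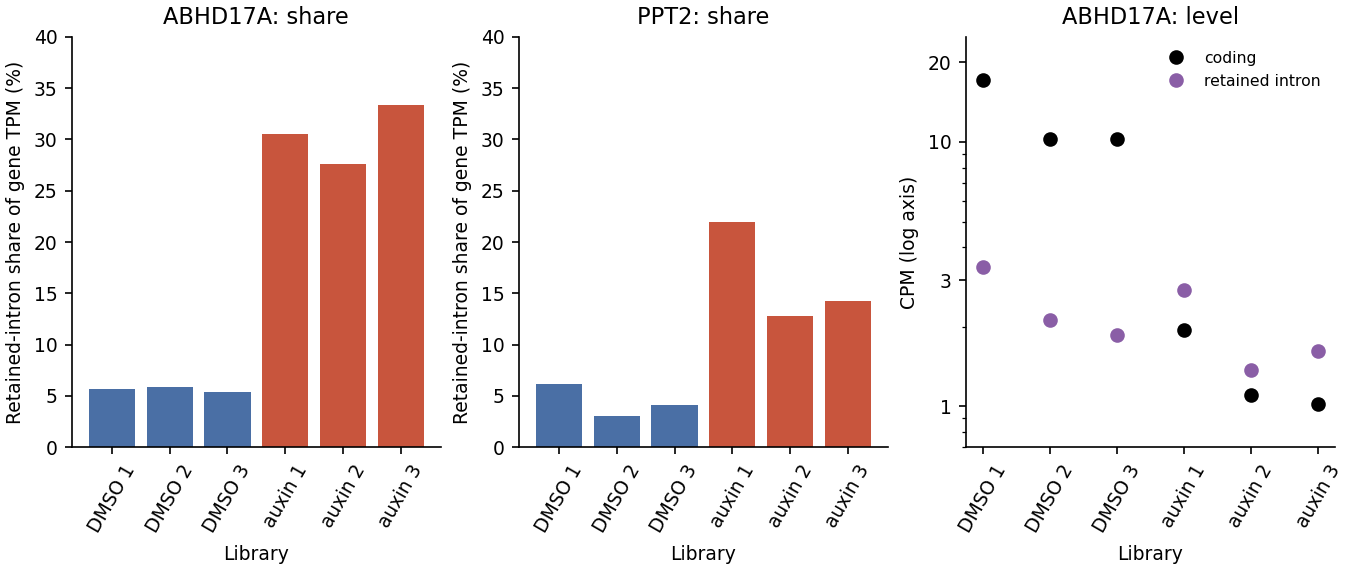
Share of the gene's TPM in transcripts annotated as retaining an intron for ABHD17A and PPT2 (bars, %, DMSO in blue and auxin in red), and CPM (log axis) of the coding (black) and retained-intron (purple) transcripts of ABHD17A in each library. The ABHD17A share was above 27% in every auxin library while the CPM of the retained-intron transcripts overlapped between groups.

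ABHD17B and ABHD17C had simple transcript patterns. ABHD17B-201 held 80.2% to 83.4% of the TPM in every library and ABHD17B-202 the rest, and neither was called (adjusted p = 0.393 and 0.967, edgeR). ABHD17C-201 held at least 97.7% in every library and was at 46.3 ± 1.08 CPM in DMSO and 41.8 ± 3.00 in auxin (SD, n = 3; adjusted p = 0.282, edgeR).

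PPT1 (ENSG00000131238.17, chr1:40071461-40097727, - strand) encodes the lysosomal enzyme that is lost in infantile neuronal ceroid lipofuscinosis. It was at 59.7, 61.2 and 66.3 CPM in DMSO and 72.4, 79.6 and 80.4 in auxin, and rose slightly (log2 fold change 0.31, SE 0.07, adjusted p = 0.00645, edgeR). In TPM the groups overlapped, at 26.5 to 37.7 in DMSO and 32.1 to 37.4 in auxin, and limma on log2(TPM + 1) did not call it (0.16, adjusted p = 0.544). PPT1 overlaps the far more abundant CAP1 by 1189 bases on the opposite strand. CAP1 stood at 568 ± 57.6 CPM in DMSO and 565 ± 56.8 in auxin (SD, n = 3). Whether the counting used the strand is not given in the sources used here, so reads from the overlap could belong to either gene. Of the annotated PPT1 transcripts only PPT1-219 reaches into the overlap. It held 0.546% to 0.954% of the gene's TPM and was at 1.01 ± 0.06 CPM in DMSO and 0.933 ± 0.112 in auxin (SD, n = 3). None of the 4 PPT1 transcripts above 5% was called. PPT1-203 carried 56.2% to 68.1% of the TPM and stood at 39.8 ± 5.85 CPM in DMSO and 50.3 ± 2.38 in auxin. With the replicate block PPT1-203 (adjusted p = 0.0374, edgeR) and PPT1-209 (adjusted p = 0.0430, edgeR) were called, and PPT1-203 also without DMSO replicate 3 (adjusted p = 0.0394, edgeR). With upper-quartile factors PPT1-203 (adjusted p = 0.0249, edgeR) and PPT1-204 (adjusted p = 0.0337, edgeR) were called. The estimate for PPT1-217 swung from 0 to 12.2% between libraries.

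PPT2 (ENSG00000221988.12, chr6:32153441-32163680, + strand) encodes a second lysosomal thioesterase with a different substrate preference, and it fell. Its TPM was 7.44, 4.34 and 4.33 in DMSO and 1.63, 0.87 and 0.85 in auxin, with no overlap. In CPM it went from 8.60, 7.86 and 7.46 to 2.06, 1.55 and 1.38. The log2 fold change was -2.26 (SE 0.17, adjusted p = 4.5e-05, edgeR). The log2 ratio of PPT2 to PPT1 went from -2.58 ± 0.22 to -5.03 ± 0.45 (SD, n = 3), a change of -2.45, lower in 3 of 3 pairs (exact permutation p = 0.1, 0.133 adjusted over the 4 ratios). PPT2 held 14.4% ± 1.93 of the summed TPM of the pair in DMSO and 3.07% ± 0.97 in auxin (SD, n = 3).

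The coding transcripts PPT2-244, PPT2-246 and PPT2-247 fell, with log2 fold changes of -2.15, -2.20 and -1.97 (adjusted p = 0.0136, 0.0112 and 0.0144, edgeR). The call of PPT2-244 was lost without auxin replicate 2 (adjusted p = 0.0527, edgeR). That of PPT2-247 was lost without DMSO replicate 3 (adjusted p = 0.0557, edgeR) and without auxin replicate 3 (adjusted p = 0.0593, edgeR). PPT2-245 was at 2.86 ± 1.21 CPM in DMSO and 0.354 ± 0.308 in auxin (SD, n = 3) and was not called (adjusted p = 0.188, edgeR). It was called without auxin replicate 3 (adjusted p = 0.0377, edgeR) and with counts divided by the overdispersion of read assignment (adjusted p = 0.0180, edgeR). The retained-intron transcript PPT2-255 was at 0.123 ± 0.056 CPM in DMSO and 0.108 ± 0.059 in auxin (SD, n = 3), while its share of the TPM was 6.18%, 3.01% and 4.16% in DMSO and 21.9%, 12.8% and 14.3% in auxin. At about 0.1 CPM this share rests on few reads. PPT2 shares 9836 bases on the same strand with the readthrough gene PPT2-EGFL8, which was at 0.503 ± 0.180 CPM in DMSO and 0.222 ± 0.083 in auxin (SD, n = 3), so the assignment of reads between them is uncertain.

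In all, the 8 genes have 81 annotated transcripts, of which 51 were tested. Of these 12 were called, 3 higher and 9 lower, against 19.7% called, 8.43% higher and 11.2% lower, among the 83072 transcripts tested. These counts include 6 calls of LYPLA2 and LYPLA1, which were chosen on this contrast, and are only described. Of the 33 tested transcripts of the other 6 genes, 6 (18.2%) were called, a share near that of all transcripts. The 9 lower ones belonged to LYPLA2 (5), PPT2 (3) and ABHD17A (1), and the higher ones to LYPLAL1 (2) and LYPLA1 (1).

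**Figure D3:**
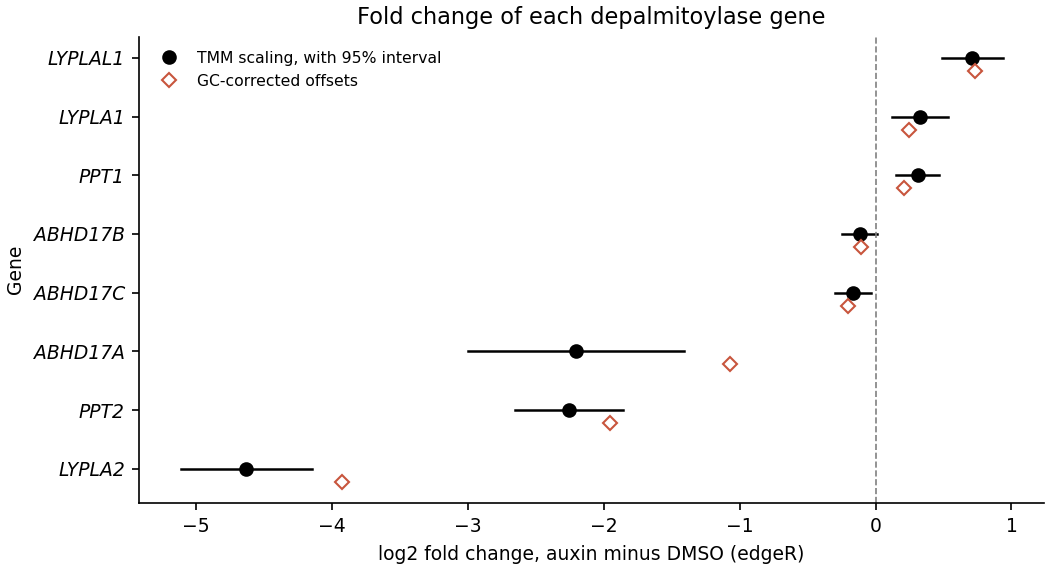
Log2 fold change, auxin minus DMSO, of the 8 genes in edgeR (black points with 95% intervals) and with GC-corrected offsets (open diamonds). LYPLA2, PPT2 and ABHD17A lie at -4.63, -2.26 and -2.20, and the other 5 genes between -0.17 and 0.71.

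In DMSO the order of mean TPM was LYPLA1, PPT1, ABHD17C, LYPLAL1, LYPLA2, ABHD17B, ABHD17A and PPT2. The range of LYPLA1 stood clear of that of PPT1, and the ranges of every later pair of neighbours in this order overlapped. In auxin the order was LYPLA1, PPT1, LYPLAL1, ABHD17C, ABHD17B, ABHD17A, PPT2 and LYPLA2, and ABHD17A, PPT2 and LYPLA2 overlapped with their neighbours at 0.59 to 1.90 TPM. LYPLA1 alone held 63.6% ± 3.03 of the summed TPM of the 8 genes in DMSO and 71.4% ± 2.63 in auxin (SD, n = 3). The sum itself was 325 ± 49.5 TPM in DMSO and 337 ± 27.3 in auxin (SD, n = 3). By this mean LYPLA2 was at rank 5 in DMSO and the last in auxin. However, LYPLA2 was above ABHD17B in only 1 of 3 DMSO libraries, and ABHD17A above PPT2 in only 1 of 3 auxin libraries. This order and these shares include short non-coding transcripts. LYPLA1-208 held 38.3% to 53.3% of the TPM of LYPLA1, and LYPLAL1-209 held 53.0% to 60.2% of that of LYPLAL1.

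Sequence upstream of the start is shown for LYPLA2 and ABHD17A, which were lower, and for ABHD17B, the relative of ABHD17A that was not called. It was read from RefSeq on GRCh38.p14, which gave promoter windows for 7 of the 8 members and none for LYPLA1. Each run is limited to the bases before both the RefSeq and the GENCODE start, and capitals mark TTCCGG (the core bound by ETS factors), GGGCGG (a GC box), CCAAT or TATAAA, on either strand. The runs are chr1:23790895-23790969 (+) for LYPLA2, chr19:1885548-1885746 (-) for ABHD17A and chr9:71911194-71911443 (-) for ABHD17B.
LYPLA2: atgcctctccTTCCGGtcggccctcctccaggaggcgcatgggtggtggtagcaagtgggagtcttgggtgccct
ABHD17A: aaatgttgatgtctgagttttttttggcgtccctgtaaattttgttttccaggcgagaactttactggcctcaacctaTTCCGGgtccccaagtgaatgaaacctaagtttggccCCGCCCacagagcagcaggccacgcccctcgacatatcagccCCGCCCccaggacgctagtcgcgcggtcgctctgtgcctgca
ABHD17B: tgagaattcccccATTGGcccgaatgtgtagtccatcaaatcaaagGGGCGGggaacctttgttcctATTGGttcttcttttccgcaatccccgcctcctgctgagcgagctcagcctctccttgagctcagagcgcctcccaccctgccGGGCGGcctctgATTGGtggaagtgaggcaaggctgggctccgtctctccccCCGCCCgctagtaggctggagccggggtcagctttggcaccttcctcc
Matches were counted in the full 250 bases before the RefSeq start. Of these only 75 in LYPLA2, 199 in ABHD17A and 0 in ABHD17C and PPT1 also lie before the GENCODE start. The windows of LYPLAL1 and PPT2 reach past it too, so matches can lie inside annotated transcripts. In LYPLA2 and ABHD17A only those in capitals above lie before both starts. TTCCGG or its reverse CCGGAA occurred 3 times in LYPLA2, 2 times in ABHD17A and 1 time in ABHD17C. It did not occur in the windows of LYPLAL1, ABHD17B, PPT1 and PPT2. PPT2, which fell as well, thus had no match. At least 1 match was found in 14.5% of 35116 such windows, at least 2 in 3.17% and at least 3 in 0.626%. GGGCGG occurred 4 times in ABHD17A, 4 times in ABHD17C, 3 times in ABHD17B, 2 times in PPT1 and not in LYPLA2. It occurred 1 time in each window of PPT2 and in 1 window of LYPLAL1. At least 1 match is in 42.6% of windows and at least 3 in 13.9%. 1 of the ABHD17A matches to TTCCGG shares a base with a GGGCGG match. ABHD17B had 3 CCAAT matches. At least 1 CCAAT is in 32.0% of windows and at least 3 are in 2.93%. These are matches of letters only, and no binding was measured.

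Genes close to the members were read from the same fit. Near LYPLA2 on chromosome 1, PITHD1 fell from 49.1 ± 3.46 to 28.8 ± 1.2 CPM (SD, n = 3; log2 fold change -0.77, SE 0.07, adjusted p = 0.000111, edgeR). The antisense RNA ELOA-AS1 fell from 1.99 ± 0.02 to 1.06 ± 0.04 CPM (SD, n = 3; -0.91, SE 0.11, adjusted p = 0.000436, edgeR).

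Around LYPLA1, TCEA1, which encodes a transcription elongation factor, fell (log2 fold change -0.50, adjusted p = 0.00166, edgeR). The non-coding ENSG00000260955 was at 0.0973 ± 0.0220 CPM in DMSO and 0.135 ± 0.0064 in auxin (SD, n = 3; adjusted p = 0.162, edgeR). PPT2 lies in the gene-dense class III region of the major histocompatibility complex. All 10 of its tested neighbours within 25 kb were called lower, with a median log2 fold change of -1.70, against 26.9% of all genes called lower. These 10 are not separate loci. PPT2-EGFL8 spans EGFL8, and PRRT1, ENSG00000285085 and ENSG00000284954 overlap on the - strand. ENSG00000285085 had 1.05 counts in its lowest library. The 10 include AGPAT1 (-2.04), an acyltransferase of phospholipid synthesis, and RNF5 (-2.34), a ubiquitin ligase of the endoplasmic reticulum. Of the 4 tested neighbours of ABHD17A, SCAMP4 rose (0.47, adjusted p = 0.000953, edgeR) and none was called lower. C9orf85 (0.59), the 1 tested gene within 25 kb of ABHD17B, and CEMIP (0.81), the 1 tested within 25 kb of ABHD17C, rose (adjusted p = 0.0011 and 0.00261, edgeR).

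**Figure D4:**
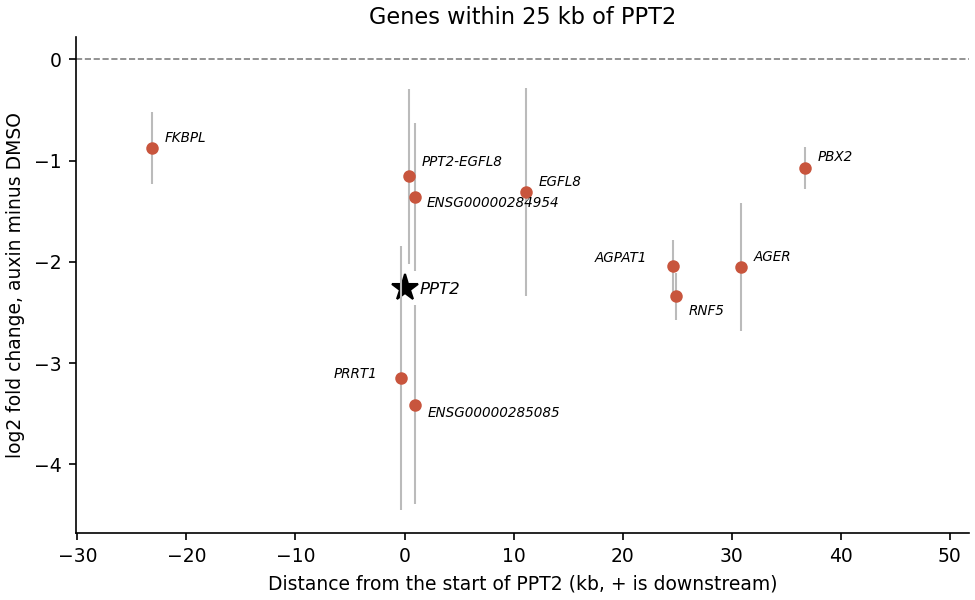
Log2 fold change (auxin minus DMSO, with 95% intervals) of the tested genes lying within 25 kb of PPT2 against the distance between start sites in kb, with PPT2 as a star. All 10 genes, several of which overlap, lie below 0, and the median is -1.70.

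The 3 members that were lower by more than 4-fold are also the shortest genes of the set. LYPLA2 spans 4.57 kb, ABHD17A 8.74 kb and PPT2 10.2 kb, and the other 5 span 26.3 to 75.9 kb. The GC content of the most abundant transcript was 61.9% in LYPLA2, 68.8% in ABHD17A and 55.9% in PPT2, and 37.0% to 50.0% in the others. By TPM that transcript was short and non-coding in LYPLA1 (LYPLA1-208, 577 bases) and LYPLAL1 (LYPLAL1-209, 475 bases). Their mean CPM in DMSO was 35.0 and 3.21, against 204 for the coding LYPLA1-201 and 10.6 for LYPLAL1-202. The GC values of these 2 genes are therefore not those of their coding transcripts. Over 14145 tested coding genes, split into 5 groups of equal size by span, the median log2 fold change was -0.27 in the shortest group, up to 10.3 kb, which holds all 3, and 0.11 in the longest. Split by GC content it was -0.79 in the highest group, which holds LYPLA2 and ABHD17A, -0.22 in the next, which holds PPT2, and 0.10 in the lowest. Genes called and at least 4-fold lower made up 21.4% of the highest GC group and 0.106% of the lowest. Across these genes Spearman's rho with the fold change was -0.35 for GC content and 0.20 for span, and -0.39 between the 2 features. The genes share the same 6 libraries and are not independent replicates.

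With offsets corrected for GC content in each library, LYPLA2 was at -3.92, PPT2 at -1.95 and ABHD17A at -1.07. The corresponding values were 0.25 for LYPLA1, 0.73 for LYPLAL1 and 0.21 for PPT1. In this fit LYPLA2, PPT2 and ABHD17A were at least 2-fold lower, and of these 3 ABHD17A moved most. The correction was fitted to these same 6 libraries. A GC bias of the libraries and a response that follows GC content cannot be told apart by it, and neither was tested. For LYPLA1 and LYPLAL1 the correction used the GC content of the short non-coding transcripts named above.

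**Figure D5:**
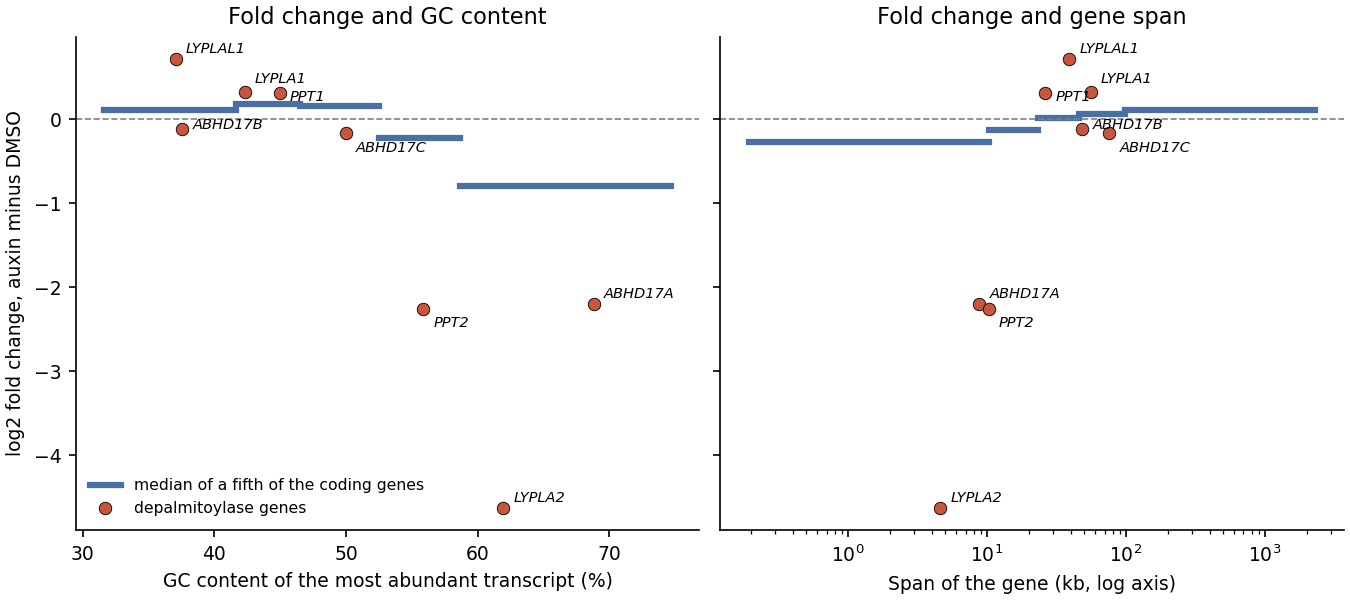
Log2 fold change of the 8 genes (red points) against the GC content of the most abundant transcript (left, %) and the span of the gene (right, kb, log axis), with the median of each of 5 equal groups of 14145 coding genes as a blue bar over its range. LYPLA2, ABHD17A and PPT2 lie below the bars of their groups, which go down to -0.79. The bars show no spread, and 21.4% of the genes in the highest GC group were called and at least 4-fold lower. For LYPLA1 and LYPLAL1 the most abundant transcript is short and non-coding.

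The enzymes that attach palmitate changed in both directions. Of 24 ZDHHC palmitoyltransferase genes, 21 were tested, 4 rose, 10 fell and 7 were not called, against 25.4% of all genes called higher and 26.9% lower, with a median log2 fold change of -0.11 against 0.02 over all genes. ZDHHC8 fell most (-3.62, adjusted p = 0.000137, edgeR), from 25.2 ± 8.71 to 2.03 ± 0.78 CPM (SD, n = 3), followed by ZDHHC1 (-2.34) and ZDHHC12 (-2.14). ZDHHC24 (1.15), ZDHHC9 (0.87) and ZDHHC2 (0.29) rose, and with TPM and limma only 1 gene of the list was called higher. ZDHHC9 forms the RAS palmitoyltransferase with GOLGA7 and went from 38.7 ± 0.67 to 70.8 ± 0.33 CPM (SD, n = 3; adjusted p = 1.2e-05, edgeR). GOLGA7 itself was at 61.5 ± 2.52 and 59.9 ± 3.28 CPM (SD, n = 3; adjusted p = 0.652, edgeR). Of the other partner proteins, SELENOK, which acts with ZDHHC6, fell (-0.50, adjusted p = 0.00324, edgeR) and GOLGA7B rose at a low level (0.50, adjusted p = 0.012, edgeR), and neither passed in limma on log2(TPM + 1) (adjusted p = 0.105 and 0.436).

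Proteins known to carry palmitate, the substrates of this cycle, were also mixed. Of 48 such genes, 47 were tested, 7 rose, 19 fell and 21 were not called, against 25.4% of all genes called higher and 26.9% lower, with a median log2 fold change of -0.03. With the replicate block 14 rose, without auxin replicate 1 12 rose, and without auxin replicate 3 4 rose. The largest falls were in TEAD3 (-3.75, adjusted p = 1.0e-05, edgeR), a transcription factor of the Hippo pathway, SCRIB (-3.60, adjusted p = 6.0e-06, edgeR), a polarity protein, and DLG4 (-2.35, adjusted p = 7.2e-05, edgeR). The largest rises were in CAV1 (0.93, adjusted p = 6.5e-05, edgeR), the coat protein of caveolae, FYN (0.56, adjusted p = 0.0136, edgeR), a SRC-family kinase, and ITGA6 (0.52, adjusted p = 0.00918, edgeR), an integrin. In limma on log2(TPM + 1) CAV1 was the 1 gene of the list called higher. The call of FYN was lost without auxin replicate 3 (adjusted p = 0.0531, edgeR). The RAS genes went apart, with HRAS at 11.6 ± 0.87 CPM in DMSO and 3.89 ± 0.45 in auxin and NRAS at 224 ± 12.7 and 271 ± 17.6 CPM (SD, n = 3; adjusted p = 4.4e-05 and 0.0183, edgeR). HRAS and NRAS were added to the named genes after their values were seen, as the substrates named in the background above.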

How the data were processed

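For each of the 6 libraries the authors deposited values by gene and, in a separate table, by transcript. Per the file headers, the values used were expected counts (estimated reads per feature, not whole and not normalized), TPM (abundance per effective length, to the same total in each library) and, as a score per feature, the effective length and the posterior SD of the count, which the authors deposited beside them. The layout is that of RSEM output. The submitters' processing notes list bcl2fastq 2.20, STAR, DESeq2 and the builds GRCh38 and hg38 without their roles. The annotation and the use of strand in counting are not given in the sources used here. Per the labels' protocols, ribosomal RNA was depleted from total RNA, and libraries were stranded and sequenced in pairs.

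All 58780 human gene IDs and 206761 transcript IDs were found in GENCODE release 29, which gave coordinates and types, and 746 other IDs, 96 of them ERCC spike-ins, were left out. Expected counts were rounded and tested with edgeR 4.0.16 in R 4.3.3 (filterByExpr, TMM, glmQLFit and glmQLFTest, Benjamini-Hochberg over all features, threshold 0.05). CPM are counts scaled with TMM factors. The code was run on simulated counts in which a small part of the features changed, equally up and down. That simulation does not cover data such as these, in which 52.3% of genes were called. Alternatives included upper-quartile factors, no TMM, DESeq2 1.42.0, other filters, limma 3.58.1 on log2 TPM, a replicate block, each library left out and, chosen after seeing the data, GC-corrected offsets (loess, span 0.5). For transcripts, counts divided by an overdispersion from their posterior SD were used as well. For the ratios, the 20 assignments of labels to libraries gave a two-sided exact permutation p.

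The labels number the biological replicates 1 to 3 in both groups. Deviations from the group means of same-numbered libraries correlated at 0.592, 0.221 and 0.225, each above 0.1. The numbers were therefore taken as pairing the libraries in the replicate block and the paired differences, which are alternatives. The main fits and the exact permutation test did not use the pairing. Differently numbered libraries correlated at -0.421 to 0.268, and the 2 positive values were between replicates 2 and 3, at 0.268 and 0.138, so that replicates 2 and 3 are not told apart by this check. Libraries of a group differed by more than sampling noise (chi-square per degree of freedom at least 37.2). Members, gene lists and tests were chosen with earlier results of these data known. Named genes were all members, the 3 largest rises and falls among the called genes of each list at a mean CPM of at least 1, transcripts with at least 5% of the gene's TPM in a group, tested genes within 25 kb of LYPLA2 and LYPLA1, and the 5 genes most like LYPLA2. Neighbours of the other members, ZDHHC and substrate genes outside this rule were named after their values were seen. Some results the rule would name are not reported here.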

Additional observations from a re-analysis of the deposited data

How the results depend on the processing

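Over 17 alternatives per gene, LYPLA2 stayed between -4.88 and -3.27, LYPLA1 between 0.23 and 0.45, PPT2 between -2.44 and -1.57 and LYPLAL1 between 0.49 and 0.83 on the log2 scale. ABHD17A kept its call between -2.84 and -1.07. ABHD17C kept its call in 6 of 17, and ABHD17B turned to 0.0057 with upper-quartile factors. With the replicate block 7005 genes were called higher and 6789 lower, against 5010 and 5311 without it. The block made ABHD17B a call and raised the called transcripts from 6999 to 10666 higher and from 9331 to 11734 lower, and the substrates called higher from 7 to 14. It changed no other call of the 8 genes. The paired differences gave the same change of each ratio, with a sign-flip p of 0.25 at the smallest.

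Genes called higher numbered 970 and those called lower 2966 in limma on log2(TPM + 1), 1017 and 3223 on log2(TPM + 0.1), and 8016 were called higher with GC-corrected offsets and the block. In both limma fits 1 palmitoyltransferase, 0 partners, 0 other ABHD hydrolases and 1 palmitoylated protein were called higher, and 0 partners and 10 palmitoylated proteins lower. Library size alone called 0 partners higher. GC-corrected offsets called 14 palmitoylated proteins higher, and with the block 22, and 2 partners lower. Replicates 2 and 3 alone called 13 palmitoylated proteins higher and upper-quartile factors 15. With those factors 10807 transcripts were called higher. With 1 library left out, genes called higher ranged from 3876 to 4979 and lower from 4493 to 5575. Transcripts ranged from 3274 to 5395 higher, with 3274, 3873, 3289 and 3550 without DMSO replicates 2 and 3 and auxin replicates 2 and 3, and from 5626 to 8883 lower, with 5626 and 6017 without DMSO replicates 2 and 3. Palmitoylated proteins called higher ranged from 4 to 12. The LYPLA2 to LYPLA1 ratio changed by -4.99 to -4.45 with 1 library left out, by -5.0 in CPM and by -3.50 with 1 added to each TPM. The causes were not tested.

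Uncalled transcripts changed sign. With upper-quartile factors ABHD17B-202 was at 0.169, ABHD17B-201 at 0.0700, ABHD17C-201 at 0.0346 and PPT2-255 at 0.0055. Without DMSO replicate 1 PPT2-255 was at 0.257, and without auxin replicates 2 and 3 at 0.0367 and 0.0359. ABHD17B-202 was at 0.0028 without DMSO replicate 2 and at 0.00026 without auxin replicate 1, where ABHD17A-205 was at -0.096. PPT1-217 was at -0.337 without DMSO replicate 3 and at -2.30 without auxin replicate 2. With 1 library left out, the ranges were -0.096 to 0.60 for ABHD17A-205, -0.0699 to 0.0028 for ABHD17B-202, -2.30 to 0.811 for PPT1-217 and -0.761 to 0.257 for PPT2-255. Depth limits the transcripts of LYPLA2 and PPT2 in auxin most, with 166 and 304 counts of the gene in the shallowest library.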

Other observations

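The ABHD family of hydrolases holds other enzymes, most of which act on lipids, and 18 of their genes were looked at beside the ABHD17 genes. Of these 16 were tested, 4 rose, 8 fell and 4 were not called, with a median log2 fold change of -0.30 against 0.02 over all genes and with 25.4% of all genes called higher and 26.9% lower. ABHD16A, a phosphatidylserine lipase, fell most among those at 1 CPM or more, from 10.8 ± 0.39 to 1.75 ± 0.38 CPM (SD, n = 3; log2 fold change -2.62, SE 0.17, adjusted p = 2.4e-05, edgeR). ABHD14A (-1.33, adjusted p = 0.000156, edgeR) and ABHD11 (-1.18, adjusted p = 3.0e-05, edgeR), a mitochondrial hydrolase, fell less. ABHD6, a monoacylglycerol lipase, rose from 16.8 ± 0.43 to 28.8 ± 0.93 CPM (SD, n = 3; 0.78, adjusted p = 5.6e-05, edgeR). ABHD10, a mitochondrial enzyme known to remove palmitate from peroxiredoxin 5, rose (0.36, adjusted p = 0.011, edgeR), as did ABHD2 (0.30, adjusted p = 0.00214, edgeR). None of the rises passed in limma on log2 TPM.

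The 5 genes whose pattern over the 6 libraries was most like that of LYPLA2, among 12799 genes compared, were MINK1, E2F1, KLC2, ITPKA and HES6. Likeness was the root mean square difference in log2 CPM after centring each gene on its DMSO mean, and it ranged from 0.055 for MINK1 to 0.185 for HES6. MINK1, a kinase, was at 84.2, 75.3 and 74.6 CPM in DMSO and 4.2, 2.69 and 2.82 in auxin. E2F1, a cell cycle transcription factor, was at 36.3, 28.3 and 29.8 CPM in DMSO and 1.57, 1.18 and 1.14 in auxin. KLC2 encodes a kinesin light chain, ITPKA an inositol phosphate kinase and HES6 a basic helix-loop-helix factor, and their log2 fold changes were -4.64, -4.71 and -4.42. They were chosen for this likeness, so their values are a description.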
